A study of Rattus norvegicus with 16 samples.

Results

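The 40 genes of DNA replication and mitosis were chosen by name, as genes whose products copy DNA or carry a cell through division. The choice did not use their values, but it was made with earlier results of these data known. Each gene was found by its symbol on an Agilent rat array that names 19774 genes. Where a gene had several probes, the one with the highest mean tissue signal was used. Obestatin is a peptide cut from the same precursor as ghrelin, and suckling Wistar rats (pups of Wistar Han parents in the study's methods) received it or saline through the mouth. OH rats were given 250 nmol/kg body weight of obestatin and C rats saline solution, 2 times a day from day 14 of life until day 21, when stomach and middle part of the intestine were taken. Each tissue of each treatment had 4 arrays, 16 in all, and an array held cRNA from the tissue of 1 rat in Cy5. In Cy3 every array carried the same common reference, made by pooling total RNA of all the animals. The methods take both tissues from 4 rats of each treatment, but the labels do not say which stomach and intestine arrays came from 1 rat. The sex of the pups is not given in the sources used here. The methods give 4 litters to each treatment and do not name the litter of each rat on the arrays. Treatment and litter therefore cannot be told apart.

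Every value below is a log2 ratio of tissue to that reference, or a difference of such ratios, so a value of 0 is the level of the pool and a difference of -1 is a ratio lower by a factor of 2. A ratio says nothing of the level of one gene against another. Differences were tested in limma over 21174 probes with Benjamini-Hochberg adjustment, and a gene is said to be higher or lower only where the adjusted p was under 0.05. All 40 genes passed the filter on dim probes: each was well above background on all 4 arrays of all 4 groups, in the tissue channel, and none was saturated. Samples are whole tissue, so fewer dividing cells and less RNA per dividing cell cannot be told apart.

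A slide held the 4 arrays of 1 group, and the slides of OH were scanned on one day and those of C on another. Treatment, slide and scan day therefore cannot be told apart. The stomach and intestine slides of 1 treatment shared a scan day, but there tissue and slide cannot be told apart. The median raw Cy3 signal was 188 to 195 scanner units on the C slides and 341 to 399 on the OH slides, although the reference was the same pool. Marker genes bore out the tissue labels, with 10 of 10 oxyntic and surface mucosa genes higher in C stomach than in C middle intestine and 11 of 12 enterocyte genes lower. C stomach replicate 2 stood apart, with a mean log2 ratio of striated muscle genes of -0.95 against 2.74 to 3.36 on the other C stomach arrays, so results of that group are also given without it where they change.

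Cells that enter division first license their origins: Cdc6 helps load the Mcm2 to Mcm7 helicase on DNA, and Cdc45 and the GINS complex, to which Gins1 belongs, start it. Pcna clamps the polymerase to its template while thymidylate synthase (Tyms) and ribonucleotide reductase (Rrm1, Rrm2) supply nucleotides. Cyclins with Cdk1 then drive entry into mitosis, kinases of the Aurora, Polo and Bub families build and check the spindle, and Cdc20 and Ube2c work with the anaphase promoting complex, which ends it. In the gut such transcripts are known from the crypts of the intestine and from the isthmus of the gastric glands, where stem and progenitor cells divide. Genes of the S phase are known targets of E2F factors, and genes of G2 and mitosis are often controlled through a CHR element beside a CCAAT box.

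The promoter windows of the genes show these elements, which is why they are printed. A window of 250 bases before to 50 bases after the start was found in RefSeq (GRCr8) for 33 of the 40 genes, and was searched on both strands for the CHR element (TTTGAA), the CCAAT box (CCAAT) and the E2F element (TTTCCCGC, TTTGGCGC, TTTCGCGC or TTTGCCGC). The CHR element stood in 15 of the 33 windows (45.5%) and in 18.3% of all 33469 windows of the table, the CCAAT box in 27 (81.8%) and in 37.5%, and the E2F element in 8 (24.2%) and in 2.14%. By role, 14 of 22 windows of G2 and mitosis genes held a CHR element and 1 of 22 an E2F element, which was that of Cdk1. Of 11 windows of replication and G1/S genes, 1 held a CHR element, that of Mcm2, and 7 an E2F element. Such letters are a description of the windows, not of binding. Below are the 150 bases before the start of 4 mitosis genes and 3 replication genes, 5′ to 3′ on the strand of the gene, with CHR elements, CCAAT boxes and E2F elements, on either strand, in capitals.
Kif23, chr8:71320585-71320734, minus strand: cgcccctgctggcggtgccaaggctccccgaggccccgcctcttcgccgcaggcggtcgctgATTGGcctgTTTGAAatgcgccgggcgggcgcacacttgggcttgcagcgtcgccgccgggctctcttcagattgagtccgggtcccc
Ccnb1, chr2:33655226-33655375, minus strand: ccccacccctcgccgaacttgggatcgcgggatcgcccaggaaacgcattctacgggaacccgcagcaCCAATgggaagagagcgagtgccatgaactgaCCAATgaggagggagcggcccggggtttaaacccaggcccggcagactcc
Cdc20, chr5:137255800-137255949, minus strand: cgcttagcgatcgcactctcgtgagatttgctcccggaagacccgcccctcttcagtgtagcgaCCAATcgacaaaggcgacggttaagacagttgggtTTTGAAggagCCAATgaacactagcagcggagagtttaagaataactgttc
Cdk1, chr20:19265143-19265292, plus strand: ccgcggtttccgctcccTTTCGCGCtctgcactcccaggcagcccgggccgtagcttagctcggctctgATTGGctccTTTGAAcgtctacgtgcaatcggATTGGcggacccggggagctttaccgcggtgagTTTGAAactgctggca
Mcm5, chr19:13488663-13488812, plus strand: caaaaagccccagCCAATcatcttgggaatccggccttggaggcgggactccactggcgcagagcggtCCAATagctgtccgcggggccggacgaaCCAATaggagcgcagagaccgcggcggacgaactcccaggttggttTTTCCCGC
Mcm6, chr13:42404353-42404502, minus strand: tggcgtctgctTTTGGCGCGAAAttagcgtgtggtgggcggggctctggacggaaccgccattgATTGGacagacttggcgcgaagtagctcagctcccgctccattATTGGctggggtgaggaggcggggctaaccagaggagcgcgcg
Tyms, chr9:120776084-120776233, minus strand: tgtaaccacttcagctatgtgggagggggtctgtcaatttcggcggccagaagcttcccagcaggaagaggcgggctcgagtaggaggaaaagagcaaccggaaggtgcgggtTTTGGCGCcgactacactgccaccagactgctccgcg

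What the arrays measured of a gene is the stretch its probe binds. The probes of 60 bases are shown for the gene on which the treatment comparison turns, Kif23, and for 4 genes of mitosis named in the results whose design coordinates span more than the probe's length, so that the probe joins 2 or more exons. Coordinates are those of the array design on rn4, and the sequences are 5′ to 3′ as printed on the array.
Kif23, chr8:66052647-66052706: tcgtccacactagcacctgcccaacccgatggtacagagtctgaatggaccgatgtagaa
Ccnb1, chr2:31574809-31575048: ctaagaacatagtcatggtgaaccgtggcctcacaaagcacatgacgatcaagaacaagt
Cdc20, chr5:138913267-138914237: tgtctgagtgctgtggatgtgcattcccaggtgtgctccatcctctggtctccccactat
Ube2c, chr3:155802226-155802557: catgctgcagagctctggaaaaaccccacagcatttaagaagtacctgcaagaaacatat
Aurkb, chr10:55801393-55801534: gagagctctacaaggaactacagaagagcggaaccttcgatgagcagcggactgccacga

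**Figure D1:**
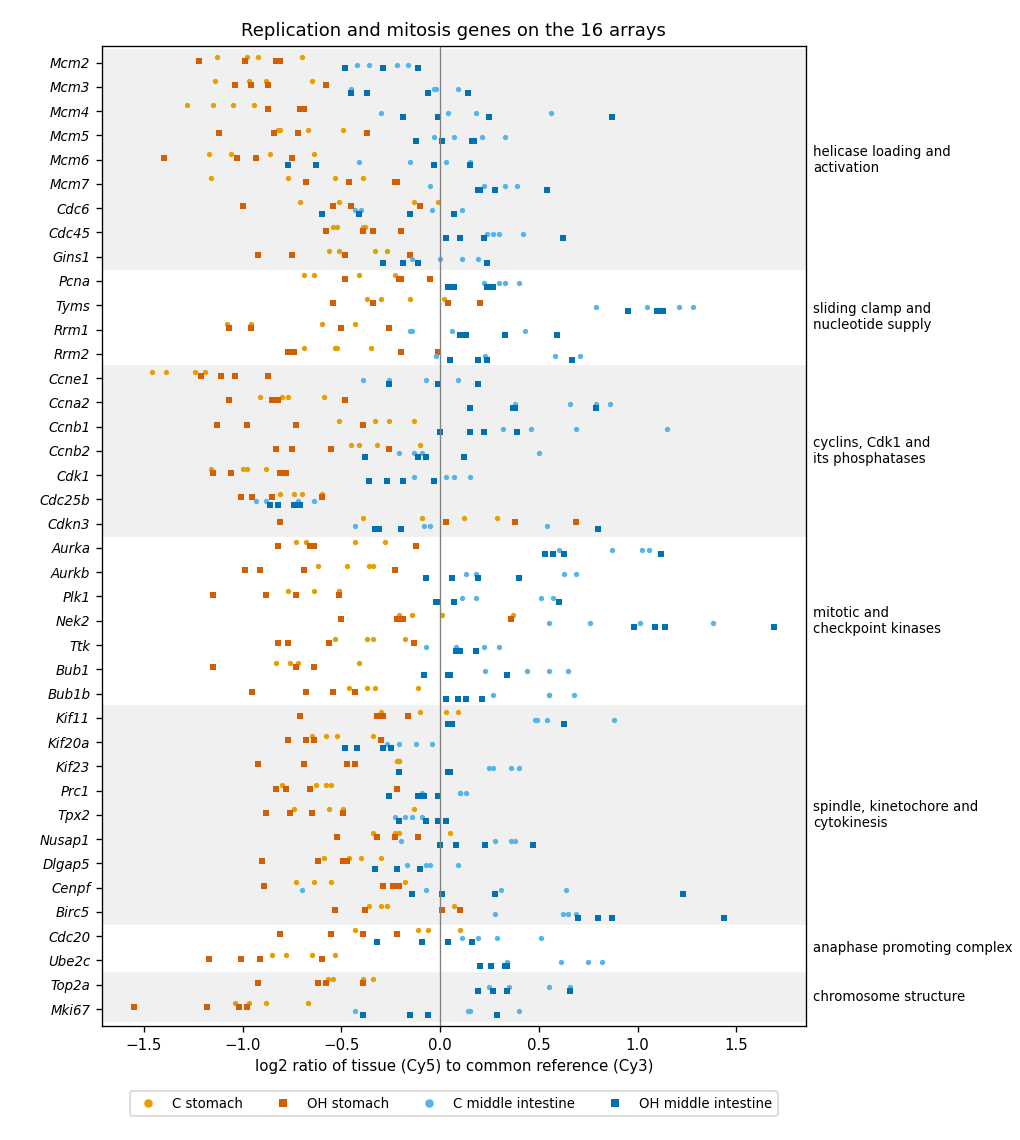
Log2 ratio of tissue to common reference (horizontal axis) of each of the 40 genes (rows, shaded by role) on the 16 arrays, 1 point per array, with circles for C, squares for OH, orange for stomach and blue for middle intestine. For most genes the stomach points lie left of the intestine points, and those of Cdc25b and Cdkn3 overlap.

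The first comparison asked how the 2 tissues differ in these transcripts. In saline rats 33 of the 40 genes were lower in stomach than in middle intestine and 0 were higher, while 22.3% of all probes tested were lower and 22.7% higher. The median difference of the 40 genes was -0.81 and that of all probes -0.01. In obestatin rats, on other arrays and slides, 35 of 40 were lower and 0 higher, against 19.1% lower and 19.2% higher of all probes, with medians of -0.71 and 0.01. For 33 genes in C and 31 in OH all 4 stomach arrays lay below all 4 intestine arrays, which held for 22.1% and 17.7% of all probes. Of the 40, 32 were lower in both C and OH. Kif20a passed only in C, Ccnb2, Tpx2 and Nusap1 passed only in OH, and Cdc6, Cdc25b, Cdkn3 and Cenpf passed in neither; the difference between C and OH passed the test for none of the 40.

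**Figure D2:**
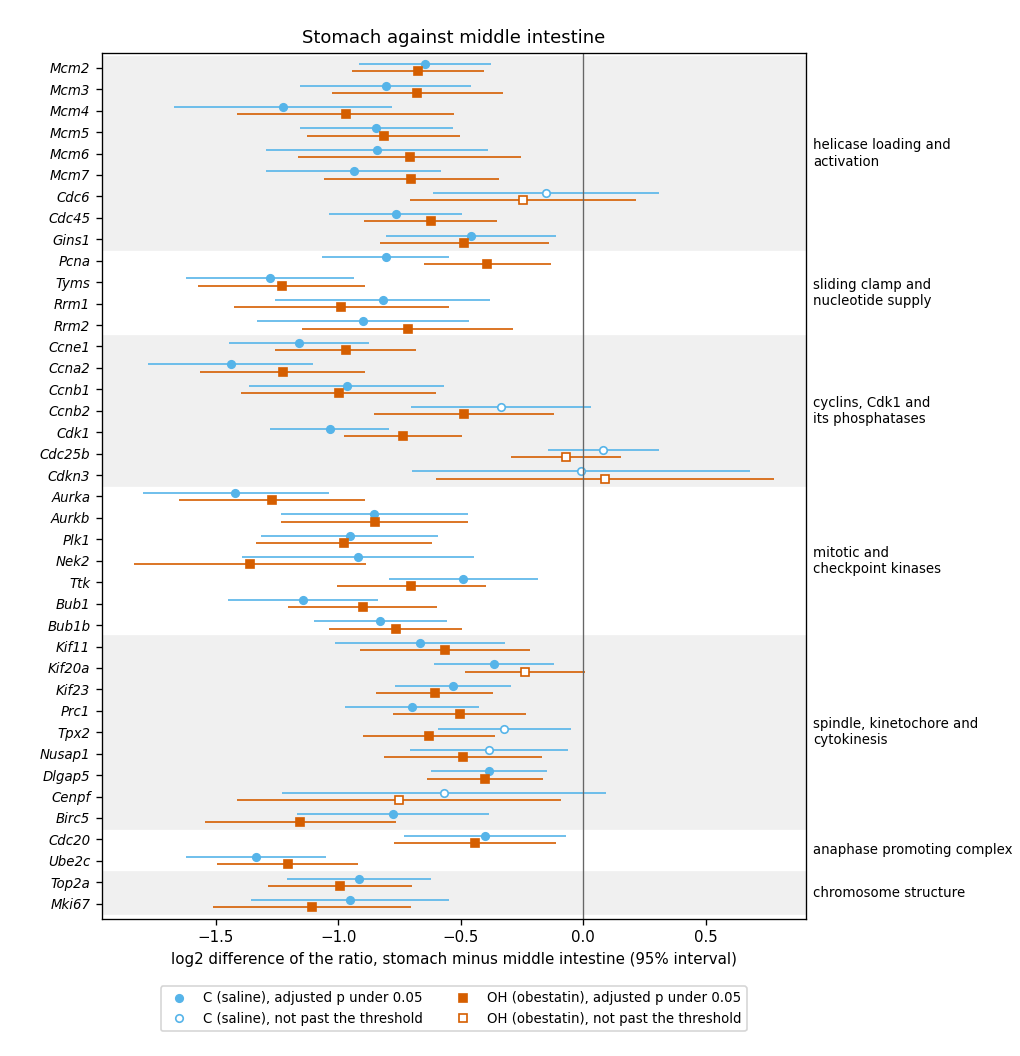
Difference of the log2 ratio between stomach and middle intestine (horizontal axis) for each of the 40 genes (rows), in C (light blue circles) and in OH (orange squares), with 95% intervals from limma and 4 arrays in each group. Filled symbols passed an adjusted p of 0.05, 33 in C and 35 in OH, all left of 0.

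Among genes of helicase loading and activation, 8 of 9 were lower in stomach in C and 8 of 9 in OH. Mcm4, a helicase subunit, differed by -1.23 ± 0.21 (SE) in C (adjusted p = 0.00027) and by -0.97 ± 0.21 in OH (adjusted p = 0.002). The other helicase subunits Mcm2, Mcm3, Mcm5, Mcm6 and Mcm7 differed by -0.94 to -0.65 in C and by -0.81 to -0.68 in OH. Cdc45 differed by -0.77 in C and -0.62 in OH, and Gins1 by -0.46 and -0.49. Cdc6, which loads the helicase, was the exception in this group, with -0.15 (95% interval -0.61 to 0.31) in C and -0.25 (-0.71 to 0.21) in OH.

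All 4 genes of the sliding clamp and nucleotide supply were lower in stomach in both C and OH. Tyms, which makes thymidylate, had log2 ratios of -0.15, 0.02, -0.37 and -0.30 in C stomach and of 1.21, 1.05, 1.28 and 0.79 in C middle intestine. Its OH arrays read -0.54, 0.04, 0.20 and -0.34 in stomach and 1.13, 1.11, 1.1 and 0.95 in middle intestine. The tissues did not overlap in either treatment, and Tyms was lower in stomach by a factor of 2.43 in C (log2 difference -1.28 ± 0.16 SE, adjusted p = 1.7e-05) and of 2.35 in OH (-1.23 ± 0.16, adjusted p = 2.7e-05). The ribonucleotide reductase subunits differed by -0.82 (Rrm1) and -0.90 (Rrm2) in C and by -0.99 and -0.72 in OH. Pcna differed by -0.81 ± 0.12 in C and by -0.39 ± 0.12 in OH.

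Of 7 genes of cyclins, Cdk1 and its phosphatases, 4 were lower in stomach in C and 5 in OH. Ccna2, cyclin A2 of S phase and G2, read -0.77, -0.59, -0.80 and -0.91 in C stomach and 0.79, 0.86, 0.66 and 0.38 in C middle intestine. The groups did not overlap, and with a difference of -1.44 ± 0.16 (SE, adjusted p = 4.6e-06), a factor of 2.71, Ccna2 had the largest tissue difference of the 40 genes in C. Ccne1, the G1/S cyclin, differed by -1.16 in C and -0.97 in OH, Cdk1 itself by -1.03 and -0.74, and cyclin B1 (Ccnb1) by -0.97 and -1.0. Cdc25b, a phosphatase that activates Cdk1, showed little difference between the tissues, with means from -0.85 to -0.71 in all 4 groups and differences of 0.08 (95% interval -0.14 to 0.31) in C and -0.07 (-0.30 to 0.15) in OH. Cdkn3, a phosphatase that acts on cyclin-dependent kinases, differed by -0.01 (-0.70 to 0.68) in C and 0.09 (-0.60 to 0.78) in OH, with an SD of 0.29 to 0.65 among arrays of a group.

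All 7 mitotic and checkpoint kinases were lower in stomach in C and in OH. Aurka, the Aurora kinase of the spindle poles, had ratios of -0.43, -0.28, -0.73 and -0.68 in C stomach and of 1.06, 1.02, 0.87 and 0.60 in C middle intestine. On the OH arrays it read -0.66, -0.64, -0.12 and -0.82 in stomach and 0.57, 0.63, 1.12 and 0.53 in middle intestine. The tissues stayed apart in both treatments, by a factor of 2.67 in C (log2 difference -1.42 ± 0.18 SE, adjusted p = 1.7e-05) and of 2.41 in OH (-1.27 ± 0.18, adjusted p = 5.3e-05). Nek2, a kinase of centrosome separation, showed the largest tissue difference of the 40 in OH, with -0.50, -0.19, 0.36 and -0.22 in OH stomach and 1.14, 1.09, 1.69 and 0.98 in OH middle intestine. These arrays did not overlap, and the difference was -1.36 ± 0.22 (SE, adjusted p = 0.00022), a factor of 2.57, while in C it was -0.92 ± 0.22. In the Cy5 signal alone the Nek2 difference was -1.37 in both C and OH. In the Cy3 reference it was -0.49 in C and -0.02 in OH. Bub1, Bub1b and Ttk, kinases of the spindle checkpoint (Bub1b as a kinase-like member), differed by -1.14, -0.83 and -0.49 in C, and Plk1 and Aurkb by -0.95 and -0.85.

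Both genes that work with the anaphase promoting complex were lower in stomach. Ube2c, its ubiquitin-conjugating enzyme, read -0.65, -0.53, -0.78 and -0.85 in C stomach and 0.75, 0.61, 0.82 and 0.34 in C middle intestine. The groups did not overlap, and the difference of -1.33 ± 0.13 (SE, adjusted p = 2.0e-06), a factor of 2.52, had the smallest adjusted p of the 40 genes in C. In OH the difference of Ube2c was -1.21 ± 0.13 (adjusted p = 6.2e-06). For Cdc20, which brings the complex to its substrates, the differences were smaller, -0.40 ± 0.15 in C (adjusted p = 0.048) and -0.44 ± 0.15 in OH (adjusted p = 0.035). Of the chromosome proteins, Top2a, which untangles DNA, differed by -0.91 in C and -0.99 in OH, and Mki67, the proliferation marker Ki-67, by -0.95 and -1.11.

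Of 9 genes of the spindle, kinetochore and cytokinesis, 6 were lower in stomach in C and 7 in OH, with medians of -0.53 and -0.57. Birc5 (survivin) differed by -0.78 in C and -1.15 in OH, Prc1, which bundles midzone microtubules, by -0.70 and -0.50, and the spindle motor Kif11 by -0.67 and -0.56. Kif23, a motor protein of the midzone, differed by -0.53 and -0.61. The kinesin Kif20a was at -0.36 in C (adjusted p = 0.018) and at -0.24 in OH (adjusted p = 0.12). Tpx2, which activates Aurka at the spindle, was at -0.32 in C (adjusted p = 0.051) and -0.63 in OH (adjusted p = 0.0012). In the Cy5 signal alone Tpx2 differed more in C (-0.727) than in OH (-0.535), with -0.439 and 0.09 in Cy3. Cenpf was at -0.57 in C and -0.75 in OH, with adjusted p of 0.15 and 0.069. A second probe of Cenpf, dimmer in the tissue channel, passed in both, with -0.43 in C (adjusted p = 0.021) and -0.50 in OH (adjusted p = 0.011).

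Whether the difference lay in the tissue channel was read from the signals of both dyes, each scaled to the 75th percentile of its array. In C the median difference of the 40 genes between stomach and middle intestine was -0.81 in Cy5 and -0.05 in Cy3, and in OH -0.75 in Cy5 and 0.00 in Cy3. In Cy5, 38 of 40 genes in C and 39 of 40 in OH had a negative difference. The median tissue difference was thus seen in the tissue channel at about the size it had in the ratio. Single genes could depart from this, as Nek2 and Tpx2 did. The tissue difference was also seen with other probes. Of the 40 genes, 12 had more than 1 probe, with 13 further probes of which 12 were kept. All 12 had a negative difference in C and in OH, 9 of them past the threshold in each. For 6 genes printed in 10 spots per array (Gins1, Cdk1, Kif11, Prc1, Nusap1 and Mki67) the median SD among spots of 1 array was 0.03 to 0.05, below the SD of 0.10 to 0.35 among arrays of a group.

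Other genes of the cell cycle, listed by name with earlier results of these data known, were read in the same way. Of 123 tested, leaving out genes that halt the cycle, 86 were lower and 2 higher in C stomach than in C middle intestine (median -0.64), and 91 were lower and 3 higher in OH (median -0.62). In C the origin recognition gene Orc1 differed by -1.72, Pold1, of a replicative polymerase, by -1.12 and the flap endonuclease Fen1 by -1.26. Of the kinetochore and spindle genes, Cenpw differed by -1.30, Nuf2 by -1.14 and Tacc3 by -0.79, and 7 of 8 condensin genes were lower. The exceptions, named after their values were seen, were E2f8, a repressor of E2F targets, and Ccnd1 (cyclin D1), higher in stomach by 1.96 and 1.02 in C and by 2.80 and 0.84 in OH, and Rbl2, higher by 0.32 in OH.

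Genes known as brakes on the cell cycle showed no common direction. Of 11 tested, 1 was higher and 2 were lower in C stomach (median 0.05), and 1 was higher and 1 lower in OH stomach (median -0.03). The inhibitor Cdkn2b was higher in stomach by 1.20 in C (adjusted p = 0.0048) and by 1.05 in OH (adjusted p = 0.012). Cdkn1c went the other way, by -1.48 in C (adjusted p = 0.0097) and -1.69 in OH (adjusted p = 0.0048), and Cdkn2d was at -0.52 in C (adjusted p = 0.011).

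Markers of cell types that can divide also differed between the tissues. Of 6 genes of intestinal crypt stem cells, 3 were lower in stomach in C, Olfm4 by -6.14, Ascl2 by -1.74 and Axin2 by -1.27, while Lgr5 was at -0.25 and Sox9 at 0.15. Their mean log2 ratio on an array was -0.72 to -0.19 in C stomach and 1.03 to 1.36 in C middle intestine. Of 11 lymphocyte genes on the array 7 passed the filter on dim probes and 6 were lower in C stomach, with a mean of -2.37 to -2.01 in C stomach and -0.38 to 1.27 in C middle intestine. In OH 3 of 6 and 6 of 7 were lower. The part of either cell type in the difference of the 40 genes was not tested.

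The second comparison asked what obestatin changed, and no single tissue gave a gene that passed. In stomach 0 of the 40 genes passed between OH and C, as did 0% of all probes, and the median difference was -0.10 for the 40 genes and 0.01 for all probes. Without adjustment 4 genes were lower in OH at p under 0.05 and 0 higher, against 5.22% and 5.39% of all probes. In middle intestine 0 of 40 passed, against 0.368% of all probes, with medians of -0.11 and 0.00. Without adjustment 7 genes were lower in OH and 1 higher, against 3.9% and 6.55% of all probes. The 95% intervals were wide for many genes, as for Aurka in stomach, -0.41 to 0.35. Leaving out 1 array at a time moved the median of the 40 genes between -0.18 (without OH stomach replicate 3) and -0.03 (without OH stomach replicate 1) in stomach. In middle intestine it moved between -0.19 (without OH replicate 3) and -0.055 (without OH replicate 1).

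**Figure D3:**
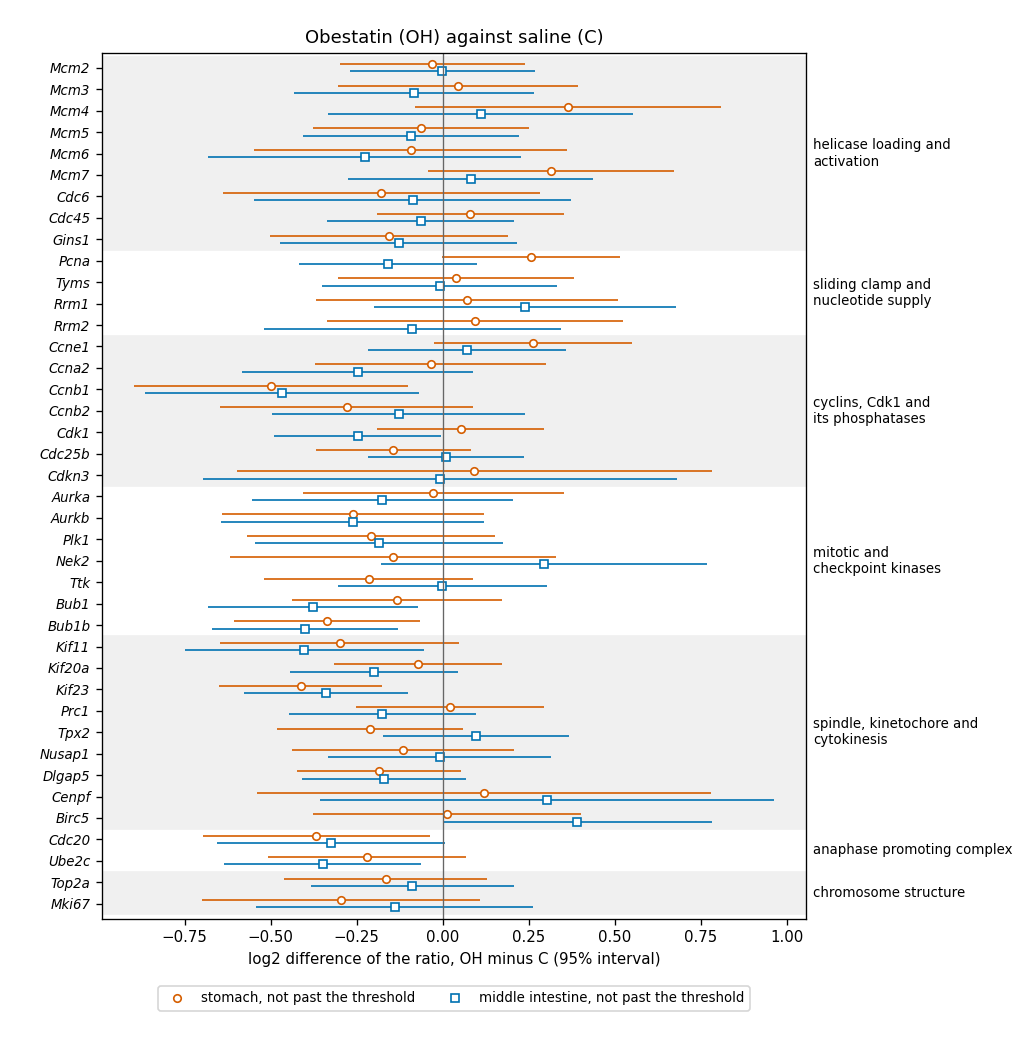
Difference of the log2 ratio between OH and C (horizontal axis) for each of the 40 genes (rows), in stomach (orange circles) and in middle intestine (blue squares), with 95% intervals from limma and 4 arrays in each group. All symbols are open because 0 of 40 passed an adjusted p of 0.05 in either tissue, and the intervals of Kif23, Bub1b and Ccnb1 lie below 0 in both tissues.

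By role, negative differences made up a larger share of the genes of G2 and mitosis than of the others in stomach. In middle intestine the shares were closer. Of 26 genes of G2 and mitosis, 21 had a negative difference in stomach (median -0.18) and 21 in middle intestine (median -0.17), with 4 and 7 of them at an unadjusted p under 0.05. Of 14 genes of replication and G1/S, 5 were negative in stomach (median 0.06) and 10 in middle intestine (median -0.07), and 0 had an unadjusted p under 0.05 in either. All 7 mitotic and checkpoint kinases were negative in stomach and 6 of 7 in middle intestine, the exception being Nek2 at 0.29. In middle intestine Nek2 was at -0.23 in Cy5 and at -0.54 in Cy3, and the kinase with a positive Cy5 difference was Ttk, at 0.02. The 4 genes of the clamp and nucleotide supply were all positive in stomach, from 0.04 to 0.26, and 1 of 4 was positive in middle intestine. Among G2 and mitosis genes the median Cy5 difference was -0.11 in stomach and -0.13 in middle intestine, against -0.08 in both for all probes. In the Cy3 reference their median was 0.11 and 0.05, against -0.05 and -0.10 for all probes. Replication and G1/S genes had medians of 0.07 and -0.003 in Cy5 and of -0.02 and 0.02 in Cy3. The difference between these roles was not tested. Further probes of the same genes often differed in sign: of 12 kept, 8 had the sign of the probe used in stomach and 6 in middle intestine. In middle intestine Top2a was at -0.09 with the probe used and at 0.63 with its other probe, and Mki67 at -0.14 and at 0.05 and 0.03.

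Kif23, a kinesin of the spindle midzone that cytokinesis needs, was the gene whose 4 OH arrays lay below the 4 C arrays in both tissues. Its log2 ratios were -0.21, -0.22, -0.21 and -0.22 in C stomach and -0.43, -0.69, -0.47 and -0.92 in OH stomach. In middle intestine they were 0.25, 0.36, 0.40 and 0.27 in C and -0.21, 0.04, 0.05 and 0.04 in OH. The C stomach arrays lay close together (SD 0.007), the OH stomach arrays did not (SD 0.23), and no OH array reached a C array of its tissue. In stomach 1 of 40 genes was lower without overlap and 1 higher, against 3.51% and 4.09% of all probes. In middle intestine 3 were lower and 1 higher, against 2.13% and 3.72%. The share of all probes that were lower without overlap in both tissues was not counted. The difference of Kif23 was -0.41 ± 0.11 (SE, adjusted p = 0.26) in stomach and -0.34 ± 0.11 (adjusted p = 0.24) in middle intestine.

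Over the mean of both tissues, 8 arrays against 8 that may come from 4 rats in each treatment, Kif23 was lower in OH by a factor of 1.30 (log2 difference -0.38 ± 0.08 SE, adjusted p = 0.047). It was the 1 of 40 genes that passed, against 0.161% of all probes lower in OH. This call did not hold in the tissue channel alone, where the difference of Kif23 was -0.11 (adjusted p = 0.47), it was lost with the replicate number as a block (adjusted p = 0.068), and it was lost when any 1 of 13 of the 16 arrays was left out (adjusted p up to 0.11). It held without OH stomach replicate 1, without OH stomach replicate 3 and without C stomach replicate 2. Bub1b was next with -0.37 (adjusted p = 0.071) followed by Ccnb1 with -0.48 (adjusted p = 0.10). Without adjustment 8 of 40 genes were lower over both tissues, all of them genes of G2 and mitosis, against 6.18% of all probes.

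Ccnb1, cyclin B1, the partner of Cdk1 at entry into mitosis, had the largest difference in either tissue. Its ratios were -0.33, -0.13, -0.26 and -0.51 in C stomach and -0.98, -0.73, -0.39 and -1.13 in OH stomach, and OH replicate 3 lay among the C arrays. In middle intestine they were 0.69, 0.46, 1.15 and 0.32 in C and 0.22, 0.39, 0.00 and 0.15 in OH, again with 1 OH array inside the range of C. The difference was -0.50 ± 0.19 (SE, adjusted p = 0.40) in stomach and -0.47 ± 0.19 (adjusted p = 0.38) in middle intestine.

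Bub1b, which holds the spindle checkpoint, read -0.37, -0.11, -0.33 and -0.46 in C stomach and -0.68, -0.54, -0.43 and -0.95 in OH stomach, with an overlap of 1 array. In middle intestine it read 0.55, 0.68, 0.55 and 0.27 in C and 0.03, 0.13, 0.21 and 0.09 in OH, and there the groups did not overlap. The difference was -0.34 ± 0.13 (adjusted p = 0.40) in stomach and -0.40 ± 0.13 (adjusted p = 0.22) in middle intestine. Bub1, its partner in the checkpoint, overlapped in stomach (-0.72, -0.41, -0.76 and -0.83 in C, -0.73, -0.73, -0.64 and -1.15 in OH). In middle intestine Bub1 read 0.55, 0.65, 0.44 and 0.23 in C and -0.08, 0.05, 0.34 and 0.04 in OH, a difference of -0.38 ± 0.14 (adjusted p = 0.34).

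The genes of the anaphase promoting complex had negative differences in both tissues, -0.37 and -0.32 for Cdc20 and -0.22 and -0.35 for Ube2c in stomach and middle intestine. The OH arrays of Ube2c lay below those of C in middle intestine, from 0.20 to 0.34 in OH and from 0.34 to 0.82 in C, where the nearest arrays differed by less than the rounding shown. The genes that went the other way were Mcm4 in stomach, from -1.28 to -0.94 in C and -0.87 to -0.69 in OH, and Birc5 in middle intestine, from 0.28 to 0.69 in C and 0.70 to 1.44 in OH. Neither passed, with a difference of 0.36 ± 0.21 (adjusted p = 0.56) for Mcm4 and 0.39 ± 0.18 (adjusted p = 0.48) for Birc5. For Birc5 the tissue signal itself was lower in OH middle intestine, by -0.29 in Cy5, while the reference signal differed by -0.70. Mcm4 in stomach differed by 0.11 in Cy5 and by -0.24 in Cy3.

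The reference pool was the same on every array, yet its Cy3 signal differed between the C and the OH slides for many genes. With each array scaled to its 75th percentile, the 4 OH arrays lay above the 4 C arrays in Cy3 for 18 of the 40 genes on the stomach slides and 13 on the intestine slides, against 14.2% and 16.7% of all probes. They lay below for 5 and 7, against 26.7% and 39.2%. For Kif23 the Cy3 signal was -0.50 to -0.43 on the C stomach arrays and -0.21 to -0.17 on the OH stomach arrays, and -0.51 to -0.46 and -0.27 to -0.21 on the intestine arrays. Its Cy5 signal overlapped between C and OH in both tissues, with differences of -0.15 in stomach and -0.07 in middle intestine, against 0.28 and 0.26 in Cy3. Ccnb1 differed by -0.39 and -0.31 in Cy5 and by 0.12 and 0.14 in Cy3, and Bub1b by -0.19 and -0.18 in Cy5 and by 0.15 and 0.20 in Cy3. Over the 40 genes the median OH minus C difference in Cy5 was -0.08 in both tissues, which was also the median of all probes on this scale.

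**Figure D4:**
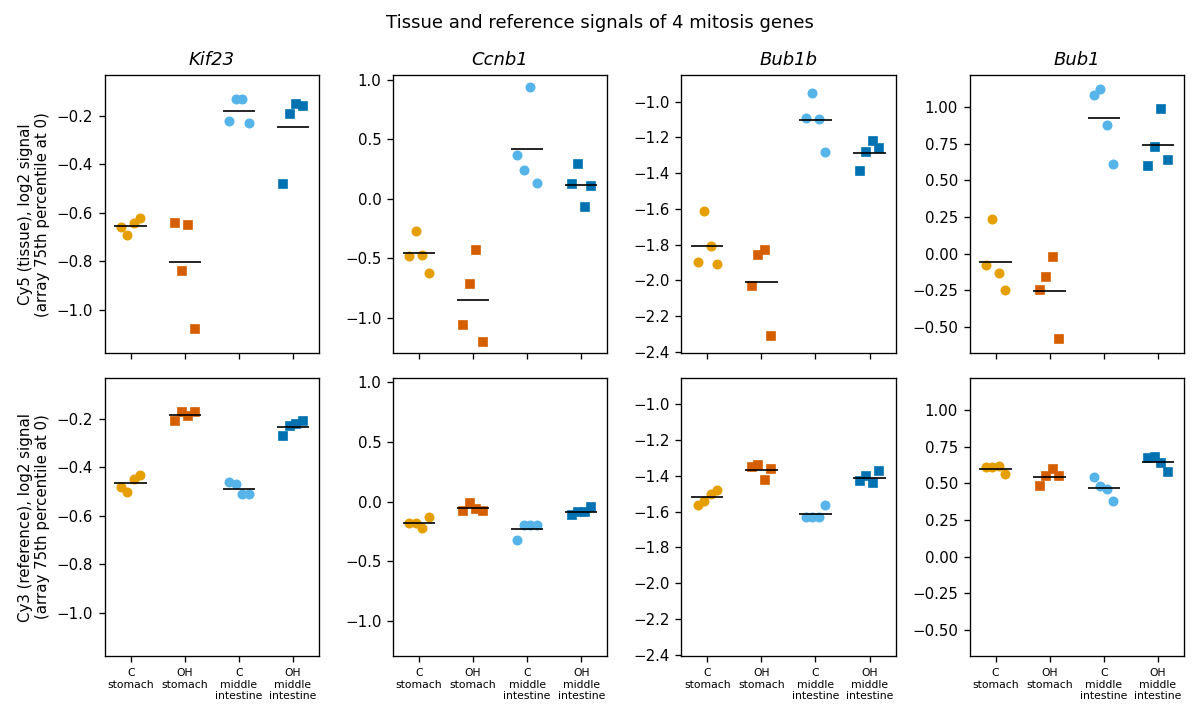
Log2 signal of the tissue channel (Cy5, upper row) and of the common reference (Cy3, lower row), each with the 75th percentile of its array at 0 (vertical axes), for Kif23, Ccnb1, Bub1b and Bub1 on the 4 arrays of each group, with a line at the mean. The Cy3 points of Kif23 are higher in OH than in C in both tissues without overlap, by 0.28 and 0.26, and its Cy5 points overlap.

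Within a group, 1 array often held the highest or the lowest value of many of the 40 genes. In OH stomach, replicate 3 had the highest value for 33 of 40 genes and replicate 4 the lowest for 27, against 42.1% and 23.2% of all probes, with medians of -0.39 and -0.87 over the 40 genes. In OH middle intestine, replicate 3 was highest for 28 of 40 (and lowest for 7) and replicate 1 lowest for 21, against 34.2% and 24.8% of all probes, with medians of 0.26 and -0.02. In C stomach, replicate 2 was highest for 23 and replicate 4 lowest for 23, against 47.3% and 29.1% of all probes, with medians of -0.34 and -0.67. In C middle intestine, replicate 4 was lowest for 23, against 31.2% of all probes, while the highest values were spread over replicates 1, 2 and 3 (10, 15 and 13 genes). The median of replicate 4 was 0.12, against 0.22 to 0.34 on the other arrays. The array medians of C and OH overlapped in both tissues, since in stomach C lay between -0.67 and -0.34 and OH between -0.87 and -0.39, while in middle intestine C lay between 0.12 and 0.34 and OH between -0.02 and 0.26. Within each group the array medians spread over more than the median difference between C and OH of the same tissue.

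Marker genes of other cell types had differences between C and OH too. The mean log2 ratio of 9 smooth muscle genes was -2.57 to -1.38 in C stomach and -2.58 to 0.98 in OH stomach, with 9 of 9 positive, and that of 12 striated muscle genes was -0.95 to 3.36 in C stomach and -0.49 to 0.97 in OH stomach, with 10 of 12 negative. In both lists 0 genes passed, with 5 smooth muscle genes higher and 7 striated muscle genes lower in OH at an unadjusted p under 0.05. Of 8 forestomach epithelium genes 7 were negative in OH stomach (median -0.58), with a mean of 0.29 to 1.67 in C and 0.25 to 1.1 in OH. In middle intestine 10 of 12 enterocyte genes were positive (median 0.48), with a mean of -0.97 to 0.00 in C and -1.27 to 1.02 in OH, while crypt stem cell genes had a median of 0.01 and lymphocyte genes of 0.17. In these lists too 0 genes passed, with 1 forestomach gene higher and 2 lower in stomach and 1 enterocyte gene and 1 crypt gene higher in middle intestine at an unadjusted p under 0.05. The part of these cell types in the differences of the 40 genes was not tested. Without C stomach replicate 2 the median OH minus C difference of the 40 genes in stomach was -0.04 and 0 of 40 passed, and 35 of 40 were lower in C stomach than in C middle intestine.

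Of the other cell cycle genes, 0 of 123 passed between OH and C in either tissue or over both. Without adjustment 7 had a p under 0.05 in stomach, 8 in middle intestine and 14 over both. Of these, 3, 2 and 5 were higher in OH and 4, 6 and 9 lower. Among all 21174 probes, 2247, 2213 and 3076 had such a p, in either direction. The median of the 123 genes was -0.03 in stomach and -0.09 in middle intestine. Racgap1, which forms the centralspindlin complex of the midzone with Kif23, was at -0.39 (adjusted p = 0.36) in stomach and -0.29 (adjusted p = 0.49) in middle intestine. The smallest adjusted p in a single tissue was that of E2f7, a repressor of E2F targets, at -0.51 in middle intestine (adjusted p = 0.073) and 0.04 in stomach. Rpa1, which coats single-stranded DNA, was positive in both tissues, 0.33 and 0.36 (adjusted p = 0.082 over both). Of 11 brakes on the cycle 0 passed, 1 had an unadjusted p under 0.05 in stomach and 0 in middle intestine, and 8 were positive in stomach and 5 in middle intestine.

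The last comparison asked whether the effect of obestatin differed between the tissues. The difference of the OH minus C differences, stomach minus middle intestine, passed for 0 of 40 genes and for 0% of all probes. Without adjustment 1238 of all 21174 probes had a p under 0.05, as did 1 of the 40 genes. That gene was Pcna, with -0.41, -0.23, -0.69 and -0.64 in C stomach and -0.48, -0.20, -0.05 and -0.21 in OH stomach. In middle intestine Pcna read 0.40, 0.33, 0.30 and 0.22 in C and 0.04, 0.07, 0.27 and 0.24 in OH. Its values thus lay mostly higher in OH stomach and lower in OH middle intestine, with overlap in both and a difference of differences of 0.42 (95% interval 0.05 to 0.78, adjusted p = 0.84). Next were Cdk1 with 0.30 (adjusted p = 0.84) and Tpx2 with -0.31 (adjusted p = 0.85).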

How the data were processed

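Arrays were scanned and quantified by the authors with Agilent Feature Extraction, version 10.10.1.1 per the file headers and 10.7.3.1 per the submitters' processing notes. The deposited scanner files hold background-subtracted, dye-normalized intensity values of both channels for each spot, and the deposited series table holds the log10 ratio of Cy5 to Cy3, used as an alternative. From the deposited intensity values, log2 ratios were computed, outlier and control spots were left out and spots of 1 probe were averaged. Of 30367 probes, 21174 were kept as well above background on all 4 arrays of a group, with 3 values or more in each group. The 4 groups were fitted together in limma 3.58.1 (R 4.3.3, 2.47 prior degrees of freedom) without a block, with 6 contrasts and Benjamini-Hochberg adjustment. Contrasts of tissue and of treatment share arrays, whereas those of C and OH between the tissues share none. Scripts were tested on simulated data. Values on every array were given for the 3 genes of each direction with the largest difference past the threshold in a contrast, or, where none passed, the 3 with the smallest p, and for genes whose OH and C arrays did not overlap in both tissues in 1 direction. Genes of other lists were the 3 with the smallest p per list and contrast. Other members were described by role. The members and lists were chosen with earlier results of these data known. P-values measure the spread between the 4 arrays of a group, whose number limits the precision. The OL group was not analysed here.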

Additional observations from a re-analysis of the deposited data

Results flagged for a closer look

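In 11 of 172 groups of 4 arrays, taken over the 40 genes and 3 medians of them (all, replication and G1/S, G2 and mitosis), the highest or lowest array lay apart from the other 3, where chance gives about 1 in 20, or 8.6. The measure is the gap to the nearest array as a share of the whole range of the group. In OH middle intestine it was replicate 3 for Kif11 (0.63 against 0.04 to 0.06, share 0.968), Cdkn3 (0.80 against -0.33 to -0.20, share 0.885) and Plk1 (0.60 against -0.02 to 0.07, share 0.85). For Kif23 it was OH middle intestine replicate 1, at -0.21 against 0.04 to 0.05 (share 0.946). In OH stomach it was replicate 4 for Cenpf (-0.89 against -0.29 to -0.21, share 0.885) and Mcm4 (-0.87 against -0.71 to -0.69, share 0.87). In C middle intestine it was replicate 4 for Prc1 (-0.09 against 0.10 to 0.13, share 0.858) and Birc5 (0.28 against 0.62 to 0.69, share 0.838). The remaining cases in C middle intestine were replicate 2 for Kif11 (0.88 against 0.48 to 0.54, share 0.852), replicate 1 for Nusap1 (-0.20 against 0.28 to 0.38, share 0.837) and replicate 3 for Ccnb2 (0.50 against -0.21 to -0.09, share 0.832).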

How the results depend on the processing

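Of 248 values recomputed under other settings, all of them counts or medians over the set of genes, 232 kept about their size and 16 moved. Of these, 8 concern how many genes were lower in OH over both tissues, which was 1. It was 2 with normexp and loess, 2 with the median of each array at 0, 3 without the filter on dim probes, 3 at an adjusted p under 0.1, 4 with array weights, 8 at an unadjusted p and 0 in Cy5 alone. In stomach the count of lower genes went from 0 to 1 with array weights, 1 with one-way ANOVA and Tukey HSD and 4 unadjusted, and in middle intestine from 0 to 2 with ANOVA and Tukey HSD and 7 unadjusted, with 1 higher. The difference between tissues gave 1 unadjusted. The tissue difference in C had a median of -0.73 with normexp and loess. Results of single genes were not among the 248 values. The call of Kif23 over both tissues was lost in 15 of 30 settings, leaving out 1 array at a time included. The difference of Tpx2 between tissues turned to 0.19 in Cy5 alone. The cause of these changes was not tested. ANOVA with Tukey HSD, and fits of the compared groups alone, give no value over both tissues or for the difference.

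Replicate numbers were not taken to pair the arrays, since some same-numbered arrays had a correlation of deviations below 0.1 in every pair of groups. Between the tissues it was 0.058 to 0.246 in C (median of other numbers -0.048) and -0.124 to 0.321 in OH, while C against OH gave -0.359 to 0.299 for the stomach arrays and -0.405 to 0.514 for those of the intestine. With the replicate number as a block, 0 genes were lower over both tissues, and the adjusted p of Kif23 was 0.068.

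Leaving out 1 array at a time gave 30 to 35 genes lower in stomach in C and 31 to 36 in OH, with medians of -0.86 to -0.74 and -0.80 to -0.66. Over both tissues it gave 0 to 2 lower genes and medians of -0.13 to -0.06. Medians of OH minus C were -0.18 to -0.03 in stomach, with the smallest without OH stomach replicate 1, and -0.19 to -0.055 in middle intestine, and those of the difference between tissues -0.09 to 0.09.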
